A study of Mus musculus with 4 samples.

Results

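The genes of glycolysis, the pentose phosphate pathway and the hypoxia response were described in fetal liver stem and progenitor cells with and without Brpf1. The set held 45 genes, given as a list of gene symbols in pathway order, and all 45 were among the 20207 genes of the deposited table. Livers of E14.5 mouse embryos, wild-type or Brpf1-null, gave LSK cells by sorting: cells without lineage markers but with Sca-1 and Kit, the fraction of blood stem cells and multipotent progenitors. Brpf1 encodes a chromatin reader that scaffolds histone acetyltransferases. The labels give 2 samples per genotype, each of about 10000 cells pooled from 4 embryos, as pair 1 on 2 sequencing lanes and pair 2 on 6. The labels give no strain, deleted allele or Cre driver.

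The tables of the pairs held the same values for every gene, so they were counted as 1 library per genotype, with no replicate and no p-value. Which pair these values belong to, or whether they merge both, could not be worked out. The size of the libraries, read from the spacing of their low values, was about 23608631 reads (wild-type) and 22180873 reads (the Brpf1-null library). The targeted gene, Brpf1, measured 2.59 RPKM in wild-type cells and 2.15 RPKM in Brpf1-null cells, and this value, taken over the full transcript, cannot show whether some of its exons were deleted. RPKM scales reads by gene length and library size, so levels of different genes can be compared with it. Folds are ratios of RPKM, and the range after a fold is its 95% exact counting interval. That interval covers counting error only, not the spread between embryos or pools, and it treats PCR copies as independent reads. A gene was measured when its mean over the libraries was at least 1 RPKM, and it was called higher or lower at 1.5-fold after adding 1 RPKM to both values.

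Glycolysis splits glucose into pyruvate in the cytosol, and lactate dehydrogenase turns pyruvate into lactate. The pentose phosphate pathway branches off after hexokinase: its oxidative arm makes NADPH, and its non-oxidative arm exchanges sugar phosphates with glycolysis. Under low oxygen, HIF alpha subunits escape prolyl hydroxylation and VHL-dependent destruction, pair with ARNT and activate glycolytic genes. Adult marrow stem cells are known for a glycolytic metabolism in which PDK kinases hold pyruvate back from mitochondria.

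Of the 45 genes, 40 were measured. In the Brpf1-null library 13 of these were called higher, 2 lower and 25 lay within 1.5-fold. Over all 9380 genes measured, 14.1% were called higher and 9.42% lower. With the median of each library set to a common level, called centring below, a shift of −0.11 on the log2 scale, these shares were 10.2% and 12.8%, and the set had 9 higher and 2 lower. The median log2 change of the 40 genes was 0.30, beside 0.04 over all genes measured, and it was 0.19 beside −0.07 after centring. Of the 13 genes called higher, 6 belong to the first steps of glycolysis, 3 to the pentose phosphate pathway, 3 to the HIF system and 1 to the PFKFB enzymes. The counting interval excluded 1 for all 15 called genes and for 18 of the 25 within 1.5-fold, 13 of them higher and 5 lower.

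The promoters of several of these genes hold the core letters that HIF binds, and 6 stretches are printed because they come from genes whose libraries differed in different directions or hardly at all. They are bases before the transcription start from RefSeq's GRCm38.p6 annotation, matched by symbol, and are not coordinates of the mm9 build used for the reads. Capitals mark ACGTG or GCGTG on either strand, so CACGT and CACGC are in capitals too. The letters CACGTG, which other factors also bind, count as a match on each strand.
Tkt, called higher, chr14:30549031-30549090, plus strand: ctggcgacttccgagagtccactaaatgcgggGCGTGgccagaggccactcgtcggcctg
Pgd, called higher, chr4:149166716-149166775, minus strand: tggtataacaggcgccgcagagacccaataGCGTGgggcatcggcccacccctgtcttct
Egln2, called higher, chr7:27166828-27166962, minus strand: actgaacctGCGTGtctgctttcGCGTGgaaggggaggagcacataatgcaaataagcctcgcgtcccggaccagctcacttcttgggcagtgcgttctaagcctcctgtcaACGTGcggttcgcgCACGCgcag
Bnip3, called lower, chr7:138909527-138909626, minus strand: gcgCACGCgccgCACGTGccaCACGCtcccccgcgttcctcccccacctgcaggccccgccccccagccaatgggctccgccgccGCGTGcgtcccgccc
Ldha, within 1.5-fold, chr7:46845654-46845778, plus strand: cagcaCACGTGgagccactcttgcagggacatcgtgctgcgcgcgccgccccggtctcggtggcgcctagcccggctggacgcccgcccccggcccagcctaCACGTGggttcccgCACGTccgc
Pgk1, within 1.5-fold, chrX:106186940-106186999, plus strand: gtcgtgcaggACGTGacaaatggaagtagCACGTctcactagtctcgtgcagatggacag

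Promoter windows, 250 bases before to 50 after each start, were on hand for 43 of the 45 genes; those of Slc2a3 and Epas1 were not. A match to ACGTG or GCGTG lay in a window of 38 of the 43 genes (88.4%), against 68.9% of 7461 measured genes with a window and 46.7% of all 27025 genes. Counted by window, since a gene can have several starts, the shares were 75.4% of 65 windows and 63.0% of the 9518 windows of measured genes. The median GC content of the windows was 60.3% in both sets. ACGTG alone lay in 17 of 24 genes within 1.5-fold (70.8%), in 4 of 13 genes called higher (30.8%) and in 30.6% of measured genes. Among the genes called higher, Gpi1 and Vhl had no match in their windows, which says only that these letters are not there. A match is a description of letters and shows no binding.

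The largest levels were those of Aldoa, Ldha and Pkm2. Aldoa, the main fructose-bisphosphate aldolase, measured 733 RPKM in wild-type cells and 735 RPKM in Brpf1-null cells and ranked 76 and 67 by RPKM among 13583 and 13269 genes above 0. Ldha, the lactate-forming dehydrogenase subunit, was at 601 and 620 RPKM. Both stayed within counting intervals close to 1, at 0.985 to 1.02 for Aldoa and 1.01 to 1.05 for Ldha. Pkm2, the symbol the table gives to the muscle-type pyruvate kinase gene with all its splice forms, was at 398 and 582 RPKM, 1.46-fold higher (1.44 to 1.49). It stood just under the line for a call, and past it only after quantile normalization. In the wild-type library 7 of the 45 genes were above 100 RPKM, and in the Brpf1-null library 10 were, the added ones being Gpi1, Pgam1 and Tkt. At the other end, 5 genes were under the filter: Hk3, Pfkfb2, Eno2, Pdk4 and Epas1. The plot of levels sets all 45 genes side by side.

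**Figure D1:**
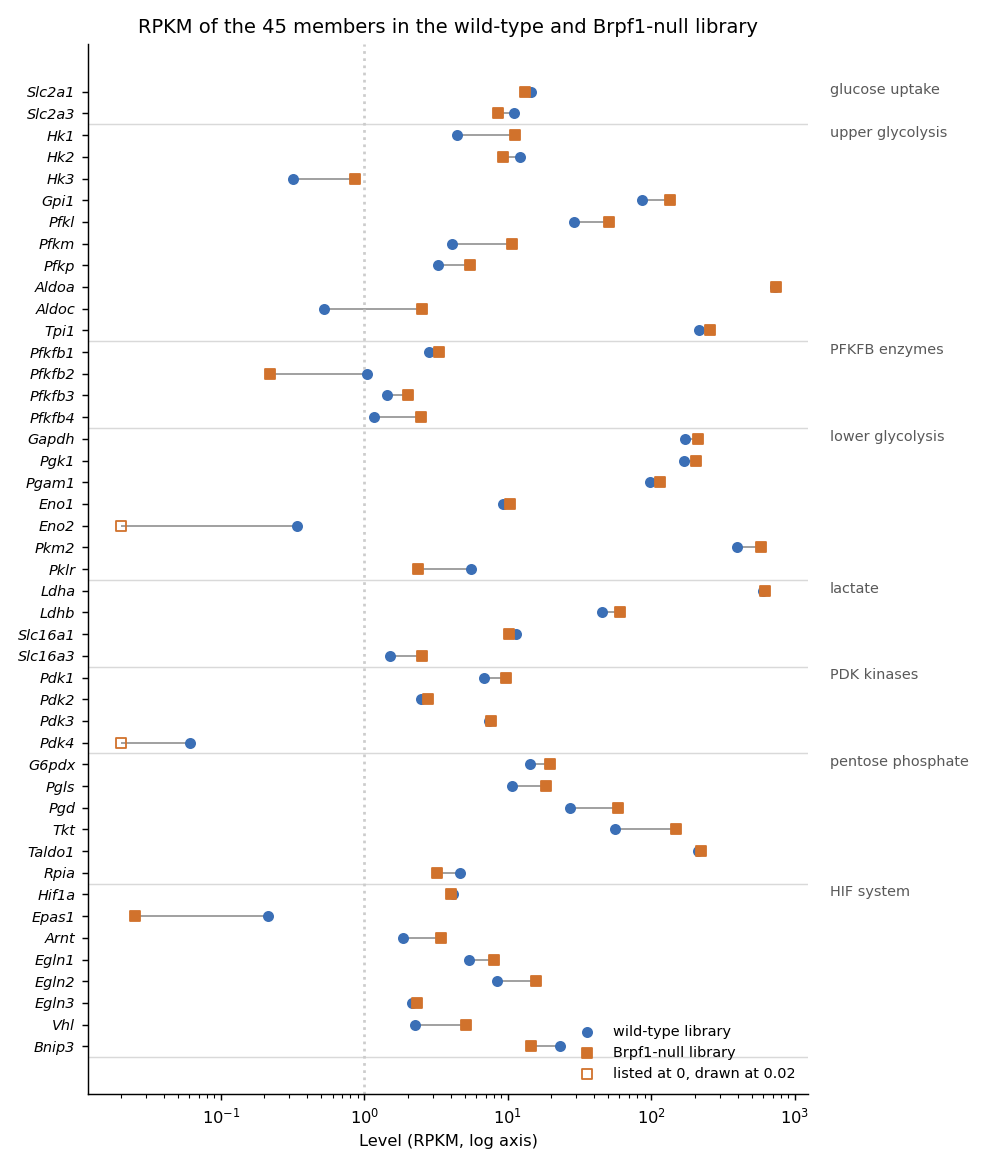
Level of each of the 45 genes in RPKM on a log axis, with circles for the wild-type and squares for the Brpf1-null library and 1 library per genotype. Aldoa, at 733 and 735 RPKM, and Ldha have circle and square nearly in 1 place, Pkm2 is higher at 398 and 582 RPKM, and Tkt, Pgd, Hk1 and Pfkm have squares well to the right of their circles; Eno2 and Pdk4 are listed at 0 in the Brpf1-null library and drawn as open squares.

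The 2 glucose uptake genes were not among the calls, beside 23.5% of all measured genes called in either direction. Slc2a1, which encodes the transporter GLUT1, measured 14.6 RPKM in wild-type cells and 13.1 RPKM in Brpf1-null cells. Slc2a3, which encodes GLUT3, was at 11.0 and 8.60 RPKM. Both were a little lower in the Brpf1-null library, 1.11-fold (1.02 to 1.21) and 1.28-fold (1.16 to 1.40). Their order was the same in both libraries, with Slc2a1 above Slc2a3.

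The hexokinases, which trap glucose in the cell as glucose phosphate, differed from each other. Hk1, the broadly expressed form, measured 4.43 RPKM in wild-type cells and 11.2 RPKM in Brpf1-null cells, 2.52-fold higher (2.24 to 2.83). Hk2, the inducible form, was at 12.1 and 9.25 RPKM, 1.31-fold lower (1.21 to 1.41). Their order was therefore exchanged between the libraries. Hk1 made up 26.8% (24.7 to 29.0) of the summed RPKM of the pair in the wild-type library and 54.7% (52.5 to 56.8) in the Brpf1-null library. Hk3, a form typical of myeloid cells, was at 0.320 and 0.867 RPKM, from about 23 and 57 reads. Of 8 measured macrophage markers 2 were called higher (25%) and 3 lower (37.5%), beside 14.1% and 9.42% of all measured genes. The 10 listed markers summed to 77.0 and 95.2 RPKM with none at 0, and their part in the value of Hk3 was not tested.

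Phosphofructokinase, the committed step of glycolysis, is built from Pfkl, Pfkm and Pfkp subunits, and all 3 were called higher. Pfkl, the liver-type subunit, measured 28.9 RPKM in wild-type cells and 51.0 RPKM in Brpf1-null cells, 1.76-fold higher (1.68 to 1.85). Pfkm, the muscle type, was at 4.05 and 10.7 RPKM, 2.63-fold higher (2.28 to 3.04). Pfkp, the platelet type, was at 3.27 and 5.45 RPKM, 1.67-fold higher (1.43 to 1.96). Pfkl was the most abundant of them in both libraries, and the share of Pfkm against Pfkl was 12.3% (10.9 to 13.7) in the wild-type and 17.3% (16.1 to 18.5) in the Brpf1-null library. The calls of Pfkl and Pfkp were lost once a trend on GC content was removed, at log2 changes of 0.58 for both, and that of Pfkp also with a pseudocount of 5 (0.34), after centring (0.49) and after quantile normalization (0.49).

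Gpi1, the isomerase between glucose and fructose phosphates, measured 86.6 RPKM in wild-type cells and 134 RPKM in Brpf1-null cells, 1.55-fold higher (1.495 to 1.60). Its call was lost after centring (log2 change 0.51) and after removal of the GC trend (0.50). Aldoc, an aldolase known from brain, was at 0.522 and 2.51 RPKM, 4.81-fold higher (3.13 to 7.44) from about 28 and 125 reads. Aldoc passed the filter through the Brpf1-null library alone, so a call was bound to be a higher one, and it was lost with a pseudocount of 5 (log2 change 0.44). Beside Aldoa it was 0.340% of the summed RPKM in Brpf1-null cells. Tpi1, the triose phosphate isomerase, was at 216 and 255 RPKM, 1.18-fold higher (1.15 to 1.22). From hexokinase to the triose phosphates, 6 of 9 measured genes (66.7%) were called higher and 0 lower, beside 14.1% and 9.42% of all measured genes. The 6 include Aldoc, and only Hk1 and Pfkm of them kept their call under every alternative setting. The median log2 change was 0.62, and 0.51 after centring.

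The PFKFB enzymes set the level of fructose 2,6-bisphosphate, the activator of phosphofructokinase. These genes were low, with the highest at 3.32 RPKM. Pfkfb4 measured 1.17 RPKM in wild-type cells and 2.49 RPKM in Brpf1-null cells, 2.13-fold higher (1.67 to 2.76), and its call was lost with a pseudocount of 5, after centring and after removal of the GC trend. Pfkfb3, the form with the strongest kinase activity, was at 1.44 and 2.02 RPKM, and Pfkfb1, the liver form, at 2.83 and 3.32 RPKM. Pfkfb2 went the other way below the filter, at 1.04 and 0.220 RPKM, 4.75-fold lower (2.98 to 7.87) from about 111 and 22 reads.

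In lower glycolysis 6 genes were measured, with 0 called higher and 1 lower (16.7%), beside 14.1% and 9.42% of all measured genes. Gapdh, Pgk1 and Pgam1, the dehydrogenase, kinase and mutase that follow the triose phosphates, lay between 1.18-fold and 1.22-fold higher in the Brpf1-null library. Gapdh measured 172 RPKM in wild-type cells and 210 RPKM in Brpf1-null cells, Pgk1 at 170 and 206 RPKM, and Pgam1 at 98.3 and 116 RPKM. Eno1, the main enolase of blood cells, was at 9.26 and 10.4 RPKM, far below its neighbours in the pathway. Its near-identical copy, listed as Gm5506, was at 0.263 and 0.356 RPKM. RefSeq also lists pseudogene or retrogene copies of Aldoa, Gapdh, Ldha, Pgam1 and Pgk1, and how reads shared between copies were counted is not given in the sources used here, so the levels of these genes are uncertain. Eno2, the neuronal enolase, measured 0.337 RPKM in wild-type cells and was listed at 0 in Brpf1-null cells.

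Pklr, the pyruvate kinase of liver and red cells, was called lower. It measured 5.53 RPKM in wild-type cells and 2.37 RPKM in Brpf1-null cells, 2.34-fold lower (1.93 to 2.85). Its share beside Pkm2 was 1.37% (1.23 to 1.51) and 0.405% (0.342 to 0.475) of the summed RPKM. With a pseudocount of 5 its log2 change was −0.52 and no longer a call. Markers of liver and red cells moved with it: 12 of 12 measured hepatocyte markers and 9 of 9 measured erythroid markers were lower by 1.5-fold. Over all measured genes 9.42% were called lower and 14.1% higher. The 13 hepatocyte markers summed to 2156 RPKM (wild-type) and 563 RPKM (Brpf1-null), with Apob listed at 0 in the latter, and the 10 erythroid markers to 603 and 88.0 RPKM, with Hba-a1 listed at 0 in both. How far these cells account for the value of Pklr was not tested, and fewer cells of a type and less RNA per cell cannot be told apart in bulk RNA. Of B lineage markers 6 of 6 measured were called lower, and the 7 listed summed to 261 and 81.3 RPKM, with Pax5 listed at 0 in both. Of megakaryocyte markers 2 of 3 measured were called lower, and the 6 listed summed to 60.5 and 20.7 RPKM. Itga2b in that list went the other way below the filter, at 0.234 and 1.01 RPKM from about 19 and 77 reads. Of 3 measured endothelial markers 1 was called higher and 1 lower (33.3% each), beside 14.1% and 9.42% of all measured genes. The stem and progenitor genes differed in direction. Kit was at 25.6 and 21.3 RPKM, and Ly6a, which encodes Sca-1, at 10.6 and 9.51 RPKM. Cd34 was called higher, at 117 and 179 RPKM, and Flt3 was at 22.9 and 33.1 RPKM, 1.45-fold higher (1.37 to 1.54). Procr was at 5.54 and 3.68 RPKM, and Slamf1, below the filter, at 0.566 and 0.0335 RPKM from about 36 and 2 reads.

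**Figure D2:**
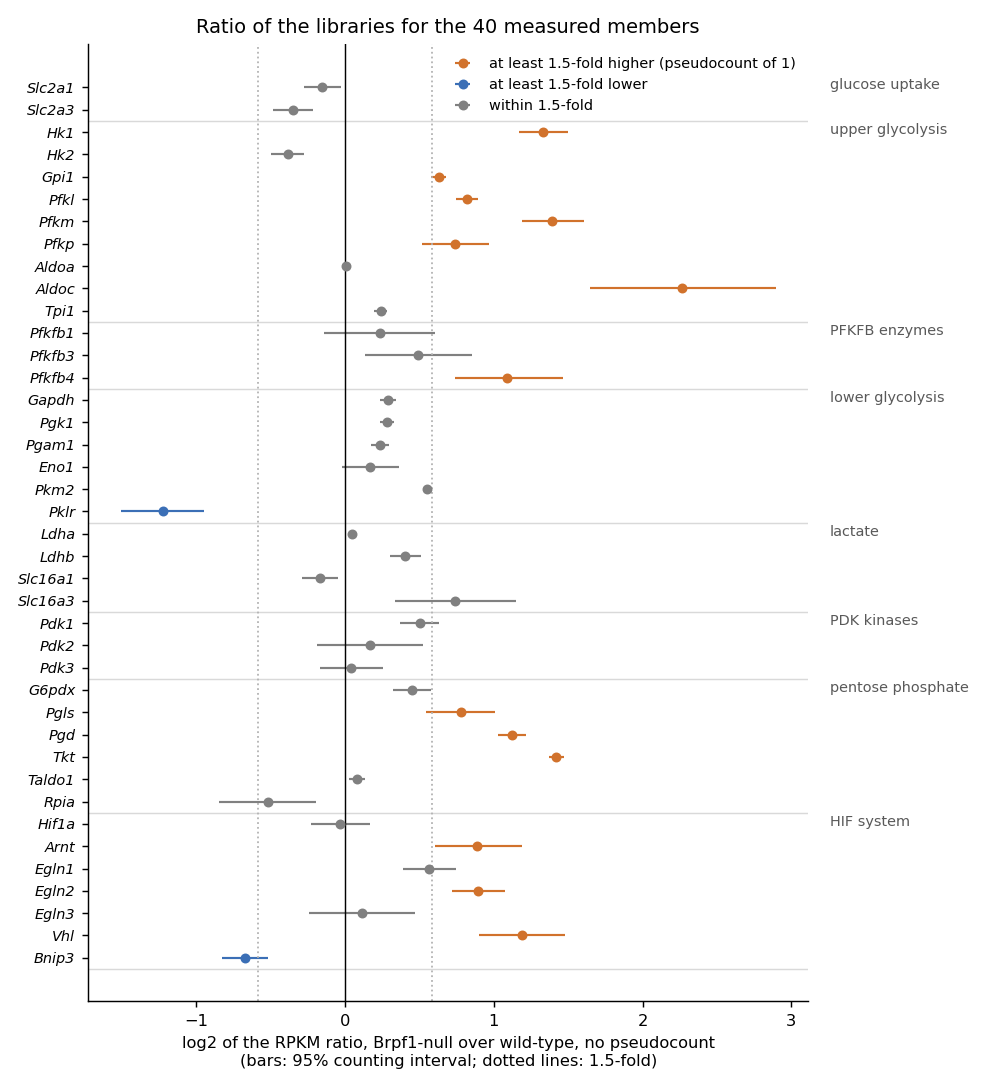
log2 ratio of Brpf1-null over wild-type RPKM for the 40 measured genes, 1 library per genotype, with bars for the 95% counting interval and dotted lines at 1.5-fold. Orange genes were called higher with a pseudocount of 1 (13), blue genes lower (2) and grey genes neither (25). Tkt, Pgd, Hk1 and Pfkm lie right of the 1.5-fold line with their whole interval, as do Aldoc, Vhl, Pfkl, Pfkfb4, Egln2 and Arnt.

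All 4 genes of lactate handling lay within 1.5-fold, beside 23.5% of all measured genes called in either direction. Ldhb, the dehydrogenase subunit that favours pyruvate, measured 45.5 RPKM in wild-type cells and 60.3 RPKM in Brpf1-null cells, 1.32-fold higher (1.23 to 1.42). Its share beside Ldha was 7.04% (6.69 to 7.40) and 8.86% (8.47 to 9.26). Slc16a1, which encodes the lactate carrier MCT1, was at 11.4 and 10.1 RPKM. Slc16a3, which encodes the lactate exporter MCT4, was at 1.51 and 2.51 RPKM, a ratio of 1.67 (1.26 to 2.21), and it passed the line for a call only with a pseudocount of 0.1. Ldha remained at least 10 times as abundant as Ldhb in both libraries.

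Of the PDK kinases, which switch off pyruvate dehydrogenase, 3 were measured and 0 called, beside 23.5% of all measured genes called in either direction. Pdk1 measured 6.82 RPKM in wild-type cells and 9.66 RPKM in Brpf1-null cells, 1.42-fold higher (1.29 to 1.55). Pdk3 was at 7.42 and 7.63 RPKM, and Pdk2 at 2.47 and 2.77 RPKM. Pdk3 was slightly above Pdk1 in the wild-type library and below it in the Brpf1-null library: the share of Pdk1 in the pair was 47.9% (44.9 to 51.1) and 55.9% (52.9 to 58.8). Pdk4, a kinase linked to fasting and to stem cell quiescence, measured 0.0612 RPKM in wild-type cells, about 5 reads, and was listed at 0 in Brpf1-null cells.

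**Figure D3:**
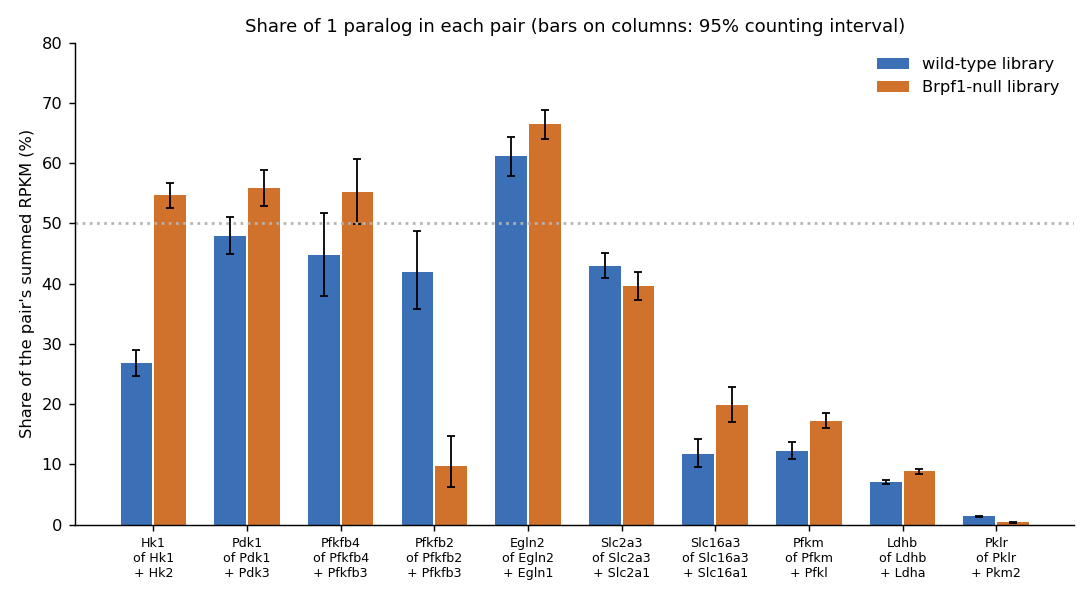
Share of the first-named gene in the summed RPKM of 10 paralog pairs, blue for the wild-type and orange for the Brpf1-null library, with 95% counting intervals and 1 library per genotype. Hk1 passes from 26.8% to 54.7% of the Hk1 and Hk2 sum and Pfkfb2 from 42.0% to 9.81% of the Pfkfb2 and Pfkfb3 sum. The intervals of the libraries overlap for Slc2a3 against Slc2a1, Pfkfb4 against Pfkfb3 and, narrowly, Egln2 against Egln1.

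The pentose phosphate pathway held 3 of the genes called higher, from 6 measured (50%), with 0 lower. The shares over all measured genes were 14.1% and 9.42%. Tkt, the transketolase of the non-oxidative arm, measured 55.4 RPKM in wild-type cells and 148 RPKM in Brpf1-null cells, 2.68-fold higher (2.58 to 2.78) from about 4215 and 10602 reads. Its log2 change of 1.40 was the highest of the set with a pseudocount of 1, but with a pseudocount of 0.1 Aldoc was above it, at 2.07 beside 1.42. The rank of Tkt by RPKM moved from 1061 to 388. Taldo1, the transaldolase that works with it, was at 211 and 223 RPKM, 1.06-fold higher (1.02 to 1.10). Tkt was therefore 20.8% (20.2 to 21.5) of the Tkt and Taldo1 sum in the wild-type and 39.9% (39.2 to 40.7) in the Brpf1-null library. Rpia, which turns ribulose phosphate into ribose phosphate for nucleotides, was at 4.63 and 3.22 RPKM, 1.44-fold lower (1.15 to 1.80).

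In the oxidative arm, every enzyme was higher in the Brpf1-null library. Of these 3 genes 2 were called higher (66.7%), beside 14.1% of all measured genes. G6pdx, the glucose-6-phosphate dehydrogenase that admits sugar to the pathway, measured 14.4 RPKM in wild-type cells and 19.7 RPKM in Brpf1-null cells, 1.37-fold higher (1.25 to 1.49). Pgls, the lactonase, was at 10.8 and 18.4 RPKM, 1.71-fold higher (1.46 to 2.01). Pgd, the second NADPH-forming dehydrogenase, was at 26.9 and 58.6 RPKM, 2.18-fold higher (2.04 to 2.32). The 3 genes summed to 52.1 and 96.7 RPKM. Their directions were the same under all 7 alternatives, but the call of Pgls was lost with a pseudocount of 5 and after removal of the GC trend, where its log2 change was 0.50.

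Among the HIF subunits, Hif1a measured 4.14 RPKM in wild-type cells and 4.05 RPKM in Brpf1-null cells, a difference not detectable at this depth (ratio 0.853 to 1.12). Epas1, which encodes the second alpha subunit, was at 0.213 and 0.0252 RPKM, a ratio of 8.46-fold lower with a wide interval (2.71 to 45.1) from about 28 and 3 reads. Of Hif1a and Epas1, Hif1a thus held nearly all of the RPKM in both libraries. Hif3a, a further alpha subunit outside the 45 genes, was at 2.99 and 1.91 RPKM. It was 1.56-fold lower (1.295 to 1.89) and not called. Arnt, the shared beta subunit, was at 1.85 and 3.42 RPKM, 1.85-fold higher (1.52 to 2.28). The call of Arnt was lost with a pseudocount of 5, after centring and after quantile normalization.

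Of the members that mark HIF alpha for destruction, Vhl and Egln2 were called higher. Vhl, the substrate receptor of the ubiquitin ligase, measured 2.25 RPKM in wild-type cells and 5.13 RPKM in Brpf1-null cells, 2.28-fold higher (1.87 to 2.79), a call lost with a pseudocount of 5 (log2 change 0.48). Egln2, a prolyl hydroxylase known as PHD1, was at 8.47 and 15.8 RPKM, 1.86-fold higher (1.65 to 2.10). Egln1, the main oxygen sensor PHD2, was at 5.37 and 7.95 RPKM, 1.48-fold higher (1.31 to 1.67), just under the line for a call. Egln3, known as PHD3, was at 2.14 and 2.31 RPKM, with an interval that includes 1 (0.845 to 1.38). Egln2 was the most abundant hydroxylase in both libraries, at 61.2% (57.9 to 64.3) and 66.4% (64.0 to 68.8) of the Egln2 and Egln1 sum.

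Bnip3, a HIF target that drives the removal of mitochondria, was called lower. It had 23.1 RPKM in wild-type cells and was 1.60-fold lower (1.44 to 1.77) in Brpf1-null cells, from about 959 and 565 reads. The call was lost with a pseudocount of 5 (log2 change −0.52) and after removal of the GC trend (−0.45), and the transcript is AT-rich, at 41.6% GC. The erythroid markers, summed to 603 and 88.0 RPKM, moved with it, and their part in its value was not tested.

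Of 10 further regulators of HIF, 9 were measured, with a median log2 change of −0.05. Of these 9, 2 were called higher (22.2%) and 1 lower (11.1%), beside 14.1% and 9.42% of all measured genes. Hif1an, the asparagine hydroxylase that blocks HIF coactivators, measured 0.963 RPKM in wild-type cells and 3.80 RPKM in Brpf1-null cells, 3.95-fold higher (3.27 to 4.78), and passed the filter through the Brpf1-null library. Os9, a lectin of the endoplasmic reticulum, was at 9.39 and 21.4 RPKM. Meis1, a stem cell homeobox factor reported to act on Hif1a, was at 44.2 and 17.0 RPKM, or 2.59-fold lower (2.43 to 2.77). Of the remaining parts of the VHL ligase, the scaffold Cul2 was at 6.54 and 4.39 RPKM, 1.49-fold lower (1.31 to 1.70) and just under the line for a call. Tceb1, Tceb2 and Rbx1 had ratios from 0.960 to 1.02, with intervals that include 1.

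Further HIF target genes did not share a direction. Of 24 genes in the table, 16 were measured, with 1 called higher, 4 lower and a median log2 change of −0.08. The shares called were 6.25% higher and 25% lower, beside 14.1% and 9.42% of all measured genes. Bnip3l, a paralog of Bnip3 that clears mitochondria in maturing red cells, measured 67.2 RPKM in wild-type cells and 34.9 RPKM in Brpf1-null cells, 1.92-fold lower (1.83 to 2.02). Tfrc, the transferrin receptor, was at 19.1 and 9.77 RPKM, 1.96-fold lower (1.82 to 2.11), and is also a gene of red cell precursors. Gbe1, the glycogen branching enzyme, was at 6.28 and 3.65 RPKM, and Ankrd37 at 8.42 and 5.23 RPKM. Pgm2, a phosphoglucomutase gene, was the one called higher, at 10.1 and 25.6 RPKM, 2.55-fold (2.31 to 2.82). Vegfa was under the filter at 0.722 and 0.309 RPKM.

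Other genes of glycolysis and the pentose phosphate pathway, outside the 45, had 15 of 29 measured, 4 called higher and 1 lower. The shares called were 26.7% and 6.67%, beside 14.1% and 9.42% of all measured genes, and the median log2 change was 0.17. Adpgk, an ADP-dependent glucokinase, measured 2.84 RPKM in wild-type cells and 6.86 RPKM in Brpf1-null cells, 2.42-fold higher (2.01 to 2.92). H6pd, the dehydrogenase that feeds the pentose phosphate pathway in the endoplasmic reticulum, was at 1.43 and 3.62 RPKM, 2.53-fold higher (2.10 to 3.07). Pgm2 is in this list too. Mlxip, a glucose-sensing transcription factor, was at 2.07 and 3.72 RPKM. These lists and the 45 genes were picked with earlier results of the same libraries known, so their directions are descriptions.

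**Figure D4:**
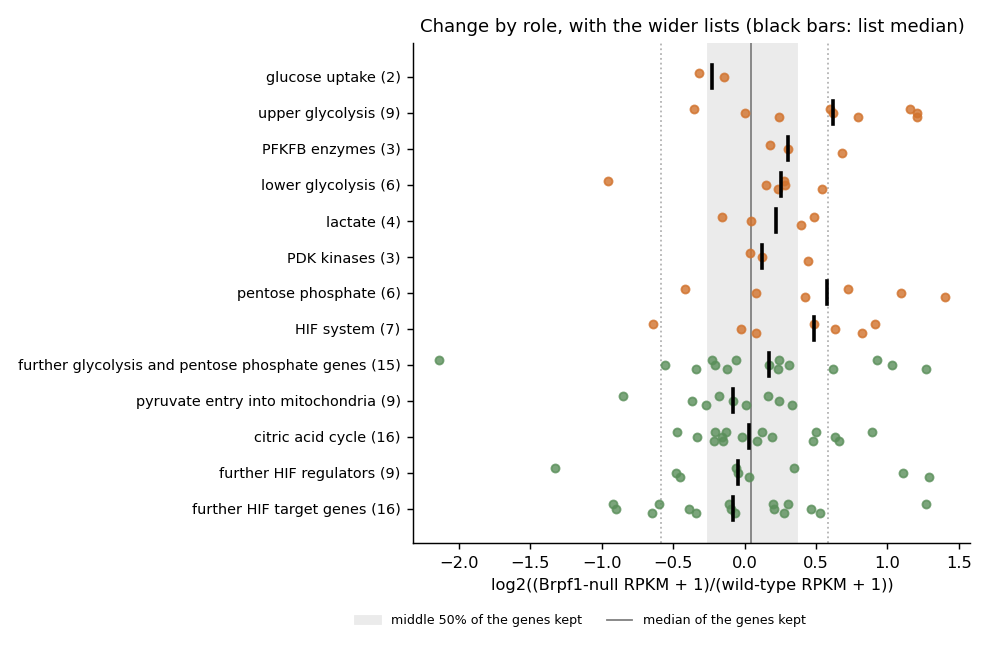
log2((Brpf1-null RPKM + 1)/(wild-type RPKM + 1)) of each measured gene by role (orange, the 45 genes; green, the wider lists), with the number measured in brackets, black bars for list medians and the middle 50% of the 9380 genes measured in grey. The medians of upper glycolysis (0.62) and the pentose phosphate genes (0.57) lie right of the grey band, and that of further HIF targets (−0.08) within it.

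Transcript GC content moved with the change over all genes. The median log2 change was −0.17 in the lowest GC decile, 0.28 in decile 9 and 0.24 in the highest. The 40 measured genes had a median GC content of 53.2%, beside 50.3% for all measured genes. With the trend removed, the median log2 change of the 40 genes was 0.26, beside 0.03 over all genes. Of the 40 genes, 8 were then called higher and 1 lower, beside 11.6% and 9.36% of all measured genes. Tkt was then at 1.26, Aldoc at 1.10, Pfkm at 1.06, Hk1 at 0.96, Pgd at 0.95, Vhl at 0.90, Arnt at 0.62 and Egln2 at 0.61. The part of GC content in the other differences was not tested further.

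**Figure D5:**
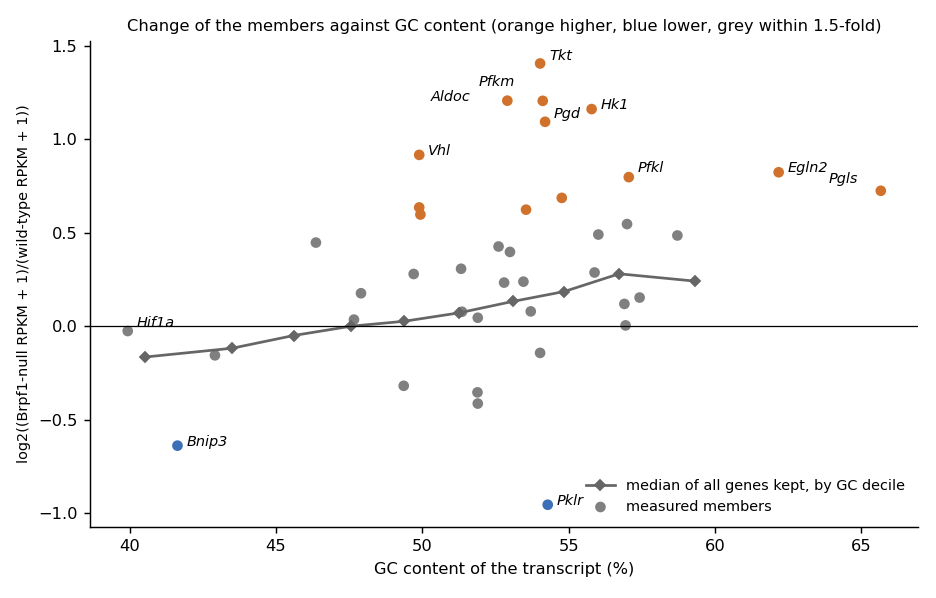
log2 change of the 40 measured genes against the GC content of their transcripts in percent, with diamonds for the median of all measured genes in each GC decile. The decile medians run from −0.17 in the lowest decile to 0.28 in decile 9, with 0.24 in the highest. Tkt, Pfkm, Aldoc, Hk1 and Pgd lie above 1, while Bnip3 lies at 41.6% GC.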

How the data were processed

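The submitters' processing notes name TopHat and mm9; its version, the annotation and the counting program were not given. Of the deposited tables, the authors headed that of pair 1 RPKM and that of pair 2 FPKM. All 20207 genes had the same wild-type and Brpf1-null values in both (0 differing), so 1 library per genotype was counted and its values are called RPKM. The deposited ratio (fold change) has wild-type as numerator, and the direction of the deposited log2 was not checked. Neither was used for the changes given here.

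Changes are log2((Brpf1-null RPKM + 1)/(wild-type RPKM + 1)), a scale that shrinks the change of low genes. The filter was a mean of 1 RPKM or more (9380 genes). No test was made: a planned fit of pairs needed differing values. Library sizes came from GENCODE M21 transcript lengths (98.1% of symbols matched, Pkm2 through a synonym): 64.8% of 1727 low values were whole reads within 0.1, against 21.6% with a size raised by 5%. Reads per gene are thus approximate. Counting intervals are Clopper-Pearson intervals of the Brpf1-null share of reads, or of 1 paralog's share. The interval code was tested on simulated data.

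All members are accounted for. The plan named the genes called, the extremes of each paralog family, and up to 4 called genes per wider list. For the further HIF targets every called gene is named. Members and lists were chosen with earlier results of these data known. Some genes, chosen after their values were seen, are given as context: Gm5506, Vegfa, and the gate genes. The same holds for Hif3a, Itga2b, Cul2, Tceb1, Tceb2, Rbx1, Brp44l, Sdhb and Sdhd. Python 3.11.15, pandas 2.3.3, scipy 1.17.1 and statsmodels 0.14.6 (a lowess fit for the GC trend, with a fraction of 0.3) were used. The gene called lower among the other glycolysis and pentose phosphate genes is not reported by name here.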

Additional observations from a re-analysis of the deposited data

How the results depend on the processing

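The 7 alternatives were a pseudocount of 0.1 or 5, no filter or a mean of at least 5 RPKM, centring, quantile normalization and removal of the GC trend. The count of the 45 genes called higher, 13 as reported, was 7 with a pseudocount of 5, beside 5.91% of all genes. It was 8 with a mean of at least 5 RPKM (27 genes left), beside 14.3%, and 8 with the GC trend removed, beside 11.6%. The count called lower, 2 as reported, was 0, 1 and 1 in the same order, beside 4.19%, 8.71% and 9.36%. As reported, the shares of all genes were 14.1% higher and 9.42% lower. Under the other settings the count ran from 9 to 14 higher and from 2 to 3 lower. The shares of all genes there ran from 7.12% to 18.6% and from 5.34% to 12.8%. The median log2 change stayed between 0.19 and 0.35. Of the 15 called genes, 5 (Hk1, Pfkm, Tkt, Pgd and Egln2) kept their call under all 7 alternatives, and 0 changed sign. Of the 40 measured genes, 9 changed sign under at least 1 alternative, each of them within 1.5-fold in all: Aldoa, Eno1, Ldha, Slc16a1, Pdk2, Pdk3, Taldo1, Hif1a and Egln3. Over all genes, those higher made up 59.9% of the calls as deposited and 44.4% after centring. No paired analysis was possible because the tables of both pairs hold the same values, and no library could be left out for the same reason. With 1 library per genotype, depth limits only counting error, which is widest for genes near 1 RPKM such as Pfkfb4 and Aldoc.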

Other observations

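Genes that follow pyruvate into the mitochondrion were mostly within 1.5-fold. Of 9 measured genes of pyruvate entry, 0 were called higher and 1 lower, with a median log2 change of −0.08. The share called lower was 11.1%, beside 9.42% of all measured genes. Brp44, now Mpc2, a subunit of the mitochondrial pyruvate carrier, measured 46.0 RPKM in wild-type cells and 25.1 RPKM in Brpf1-null cells, 1.83-fold lower (1.66 to 2.03), while its partner Brp44l (Mpc1) was at 132 and 125 RPKM. Of 16 citric acid cycle genes, all measured, 3 were called higher and 0 lower, with a median of 0.03. The share called higher was 18.75%, near the 14.1% of all measured genes. The 3 called genes included Dlst, a subunit of the oxoglutarate dehydrogenase complex, at 16.2 and 30.9 RPKM, 1.91-fold higher (1.77 to 2.06). The others were the succinate dehydrogenase genes Sdha, at 70.5 and 110.1 RPKM, and Sdhc, at 39.8 and 63.7 RPKM. The other subunits of that enzyme, Sdhb and Sdhd, were at 347 and 343 RPKM and at 219 and 188 RPKM.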
